A study of Mus musculus with 41 samples.

Results

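The background of a FLAG chromatin immunoprecipitation (ChIP-seq) was followed in 3T3 mouse fibroblasts that overexpressed green fluorescent protein (GFP) in place of tagged Runx2. All peaks of the list named for GFP at day 0 (2475) were set against all peaks of the list named for GFP at day 3 (16799), 19274 of the 155773 peaks in the 8 ChIP-seq lists of the series (12.4%). A day 0 peak that overlapped a day 3 peak by at least 1 bp is called persistent and any other day 0 peak lost. A day 3 peak that overlapped a day 0 peak is called shared and any other day 3 peak new. These words describe membership of 2 lists of called peaks and not the signal at a site, because the files hold coordinates and no heights.

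The series asked where Runx2, a transcription factor without which osteoblasts do not form, lies in the chromatin of skeletal cells. The day 0 group was 3T3 cells overexpressing GFP, and the day 3 group was the same kind of cell after 3 days in osteogenic medium, which contained recombinant human BMP-2 at 100 ng/ml, β-glycerophosphate at 10 mM and ascorbic acid phosphate at 50 µg/ml. Each group had 1 library, so no value below has a replicate error and no test between the days was made. The other 6 lists were Runx2 in 3T3 cells overexpressing the tagged protein (Runx2BioFL) at day 0 and at day 3 of the same medium, tagged Runx2 in rib chondrocytes and calvarial osteoblasts of newborn knock-in mice (Runx2-BioFL/+), Foxa2 in wild-type rib chondrocytes and Jun in wild-type calvarial osteoblasts. All of these primary cells, knock-in and wild-type, were of postnatal day 1.

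FLAG is a short peptide tag recognised by an antibody, and a cell without a tagged DNA-binding protein should give no specific site in such a precipitation. Control precipitations nevertheless return peaks, often at open regulatory DNA, at highly transcribed genes and at repeats that the reference genome holds in too few copies. Peak lists are usually filtered against such sites. BMP-2 is a secreted bone-inducing factor, ascorbate and glycerophosphate are the usual additions to osteogenic medium, Jun is a subunit of the AP-1 transcription factor found at many open enhancers, and Foxa2 is a forkhead factor. The labels name the precipitation of the GFP cells Runx2-FLAG and do not say whether the GFP carried a tag or whether its cells made Runx2 of their own. 3T3 cells are an established fibroblast line, and peak lists give no means to check the identity of the cells by marker genes.

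For 2 lists the name and the label disagreed. In the labels, the sample of Runx2BioFL cells at day 0 carries the list whose name gives GFP day 3, and the sample of GFP cells at day 3 carries the list whose name gives Runx2 day 0. The lists are used here by their names, and each main result is followed by its value after the exchange, when the list named for Runx2 day 0 (31013 peaks) takes the place of GFP day 3. Among the 4 lists of 3T3 cells, names and labels match for GFP day 0 and Runx2 day 3. The 2 crossed lists differed in their overlap with that matching Runx2 list: 41.9% (41.2 to 42.7%) of the GFP day 3 list and 81.8% (81.4 to 82.2%) of the Runx2 day 0 list lay in Runx2 day 3. They also differed in the primary cells, where 15.1% (14.6 to 15.7%) and 20.7% (20.2 to 21.1%) lay in osteoblast Runx2 and 14.7% (14.2 to 15.3%) and 27.2% (26.7 to 27.7%) in chondrocyte Runx2. For Jun the order was the opposite, with 25% (24.3 to 25.6%) of the list named for GFP day 3 and 18.7% (18.3 to 19.2%) of the list named for Runx2 day 0. Intervals here and below are 95% Wilson intervals for shares and Newcombe intervals for differences of shares. They cover counting error only, since neighbouring peaks are not independent and libraries were not repeated.

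The GFP list grew from day 0 to day 3 by name. It held 6.79 times as many peaks at day 3, and 12.5 times as many after the exchange. Many day 3 peaks overlapped another peak of their own list: 4750 of 16799 (28.3%), against 173 of 2475 (6.99%) at day 0. The share was lower in each of the 6 other lists, with 13.3% in Runx2 day 0, 11.4% in Runx2 day 3, 1.82% in osteoblast Jun, 1.47% in osteoblast Runx2, 0.997% in chondrocyte Foxa2 and 0.793% in chondrocyte Runx2. After overlapping peaks were merged, 2384 regions remained at day 0 and 14179 at day 3, a ratio of 5.95. They covered 529.1 kb and 4059 kb, a ratio of 7.67. The median peak was 203 bp wide at day 0 and 254 bp at day 3. The depth of sequencing is not given in any source at hand, so its part in the size of the lists was not tested.

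**Figure D1:**
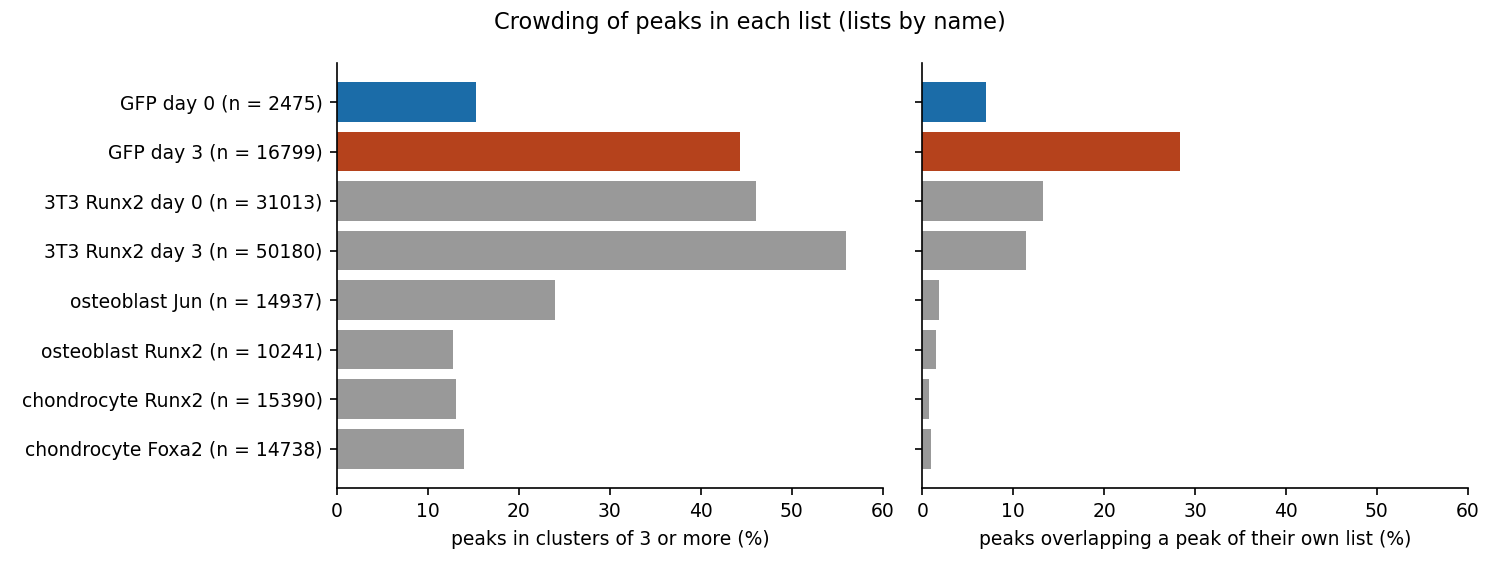
Crowding of peaks in each of the 8 lists, with lists taken by name. Left, share of peaks (%) in clusters of 3 or more peaks with gaps of at most 10 kb, where GFP day 0 stands at 15.3% and GFP day 3 at 44.3%. Right, share of peaks (%) that overlap another peak of the same list, highest in GFP day 3 at 28.3%. Bars are single values without replicates and n is the number of peaks.

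Of the day 0 peaks, more were met by the full day 3 list than not. Of 2475, 1380 were persistent (55.8%, 53.8 to 57.7%) and 1095 were lost (44.2%, 42.3 to 46.2%). Seen from day 3, 1561 of 16799 peaks were shared (9.29%, 8.86 to 9.74%) and 15238 were new (90.7%, 90.3 to 91.1%). As a background, 3.43% of the 136499 peaks in the 6 other lists overlapped the GFP day 0 list and 16.5% overlapped the list named for GFP day 3. After the exchange 1163 day 0 peaks were persistent (47.0%, 45.0 to 49.0%), and 1354 of 31013 day 3 peaks were shared (4.37%, 4.14 to 4.60%). The shorter of the crossed lists thus met more day 0 peaks than the longer. The shares depend on the length of the list: cut to its first 2475 peaks in file order, the list named for GFP day 3 met 23.3% of day 0 peaks, and 24.6% of those it kept were shared. In the wider 50% of each list the persistent share was 35.7%, and 5.99% of day 3 peaks were shared.

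Persistent peaks were chosen for overlap, so the distance between their centres and those of their partners was limited by the peak widths. The centre of a persistent peak was at a median of 65.5 bp from the nearest partner's centre (quartiles 26.5 and 123 bp), and a median of 86.1% of its length was covered by day 3 peaks. In 450 of 1380 (32.6%) the whole day 0 peak was covered. Most had 1 partner (1078), 260 had 2, 34 had 3 and 8 had 4. Of the 1561 day 3 peaks met by the 1380 day 0 peaks, 1403 overlapped 1 day 0 peak, 147 overlapped 2, 9 overlapped 3 and 2 overlapped 4. After the exchange the median centre distance was 78.5 bp, the median cover 59.4%, and 224 of 1163 peaks (19.3%) were fully covered. The list then used has narrower peaks (median 190 against 254 bp), and the part of width in these values was not tested.

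Many lost peaks lay close to a day 3 peak, but distances of the other lists to day 3 were not taken as a background. Of the 1095, 442 (40.4%, 37.5 to 43.3%) lay within 0.5 kb of a day 3 peak and 659 (60.2%, 57.3 to 63.0%) within 10 kb, and their median distance to a day 3 peak was 1.91 kb. New peaks rarely adjoined a day 0 peak: 1326 of 15238 (8.70%, 8.26 to 9.16%) lay within 1 kb of it and 2035 (13.4%, 12.8 to 13.9%) within 10 kb, with a median distance of 173 kb. Peaks of the other lists that did not overlap GFP day 0 lay within 10 kb of it in 12% (Jun), 11.2% (Runx2 day 0), 8.99% (Runx2 day 3), 7.65% (osteoblast Runx2), 7.11% (chondrocyte Runx2) and 3.47% (Foxa2) of cases. The new GFP peaks stood above all 6, beside Jun and Runx2 day 0. After the exchange 56.9% of lost peaks lay within 0.5 kb of the day 3 list and the median distance was 0.368 kb. Day 3 offers more peaks to be near to in each case, so the distances of lost and new peaks are not a like comparison.

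Lost and persistent peaks of day 0 also differed in width. Persistent peaks had a median of 211 bp (quartiles 152 and 303) and lost peaks of 196 bp (145 and 257). The part of width in the classes was not tested. On the day 3 side shared peaks had a median of 275 bp and new peaks of 252 bp. Of persistent peaks 10.6% overlapped another peak of the day 0 list, against 2.47% of lost peaks, and 35.7% of shared against 27.5% of new peaks did so in the day 3 list. After the exchange 7.22% of persistent and 6.78% of lost peaks did so, hence nearly the same share. On the day 3 side the exchanged shares were 31.9% of shared and 12.5% of new peaks. Median widths were then 218 bp for persistent and 191 bp for lost peaks, and 204 bp for shared and 190 bp for new peaks.

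The classes by name stood at different places in the deposited files. What ordered the files is not given, and the order follows neither chromosome nor start. Along 10 equal parts of the day 0 file the persistent share was 85.5, 83.5, 77.4, 72.2, 64.5, 55.9, 38.9, 36.8, 25.9 and 16.6%, a fall at each step. Along the day 3 file the share of peaks met at day 0 went from 29.5% in the first of 10 parts to 2.92% in the last. After the exchange the persistent share along the day 0 file moved less, from 48.4% in the first part to 44.1% in the last. Over the 10 parts it lay between 40.5 and 51.6%. Along the file named for Runx2 day 0 the share met by GFP day 0 went from 8.28 to 0.613%. Within the day 0 file the share in osteoblast Jun went from 52.4 to 17%, that in osteoblast Runx2 from 46.0 to 10.9% and that in chondrocyte Runx2 from 37.9 to 14.2%. The share in 3T3 Runx2 day 3 moved less, between 52.2 and 63.7% over the 10 parts. Overlap with another peak of the same list went from 23.4 to 0.810% along the day 0 file and from 48.5 to 11% along the day 3 file. Along the day 3 file overlap with Runx2 day 3 went from 57.9 to 19.3% and overlap with Jun from 42.3 to 10.1%.

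**Figure D2:**
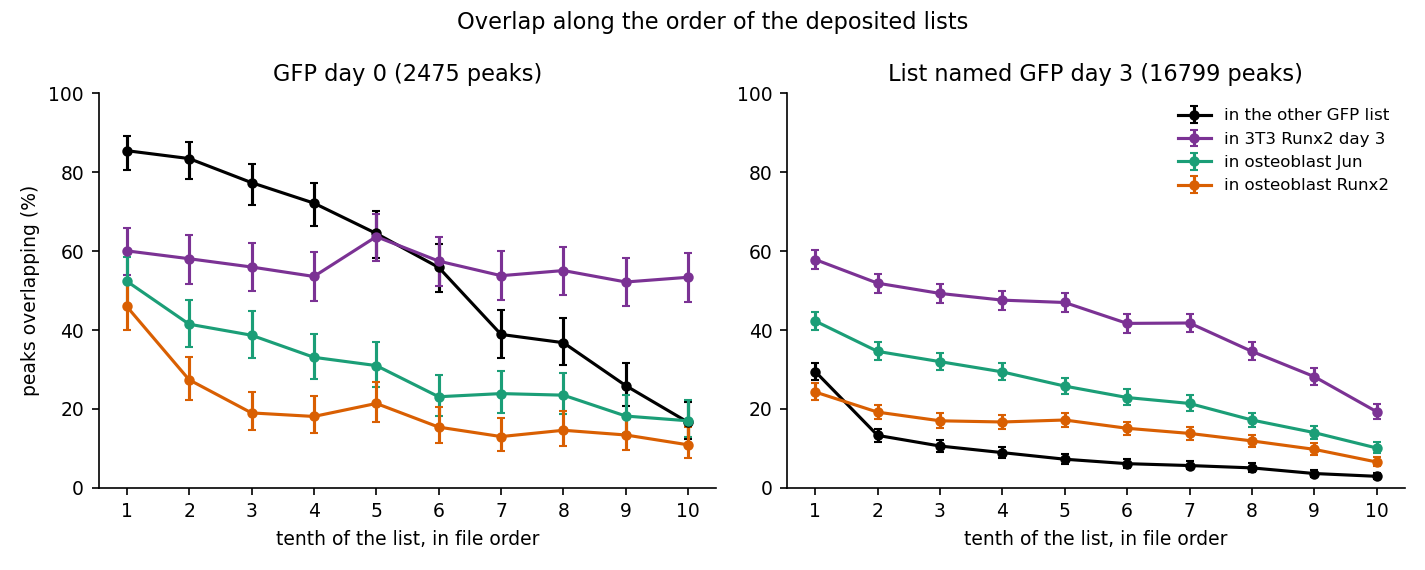
Share of peaks (%) overlapping another list along 10 equal parts of the GFP day 0 file (left) and of the file named for GFP day 3 (right). Points are shares and bars 95% Wilson intervals for counting error. The black line, overlap with the other GFP list, falls from 85.5 to 16.6% on the left and from 29.5 to 2.92% on the right, while overlap with 3T3 Runx2 day 3 on the left begins at 60.1% and ends at 53.4%.

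The leading day 0 peaks were also Runx2 peaks of primary bone and cartilage cells. This set, the first 50 peaks of the file, was chosen after the values had been seen. The first 48 peaks of the file were all persistent by name of the lists, and 21 of the first 50 were so after the exchange. Of the first 50, 45 (90.0%, 78.6 to 95.7%) lay in the osteoblast Runx2 list and 46 (92.0%) in the chondrocyte Runx2 list, and 45 lay in both. Among the 2425 later peaks the shares were 18.5% and 16.8%. The Runx2 lists of 3T3 cells themselves held fewer of these 50 than the primary lists. Runx2 day 0 held 42.0%, against 47.1% of later peaks, and Runx2 day 3 held 36 (72.0%), against 56% of later peaks. Jun held 31 (62.0%, against 29.6% of later peaks) and Foxa2 7 (14%, against 1.15% of later peaks).

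The Runx2 partners of these 50 peaks headed the files of the primary cells. Where a peak had several partners in a file, the earliest in that file was taken. The 45 partners in the osteoblast Runx2 file of 10241 peaks stood between positions 1 and 63, with a median of 22. The 46 in the chondrocyte Runx2 file of 15390 peaks had a median position of 30, and 43 of them were in its first 10%. The 48 partners in the file named for GFP day 3 had a median position of 545.5 of 16799, and 33 were in the first 10%. By contrast the 31 partners in the Jun file had a median position of 4839 of 14937, with 5 in the first 10%, and the 21 in the Runx2 day 0 file a median of 7169 of 31013, also with 5.

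Read from the other side, the head of the osteoblast Runx2 list was largely made of peaks present in the GFP control. Of its first 50 peaks, 42 (84.0%, 71.5 to 91.7%) overlapped GFP day 0 and 45 (90.0%, 78.6 to 95.7%) the list named for GFP day 3, against 4.55% and 20.1% of the whole osteoblast list. Of its first 100, 65 (65.0%) overlapped GFP day 0. In the chondrocyte Runx2 list 27 of the first 50 (54.0%, 40.4 to 67.0%) overlapped GFP day 0, against 2.86% of all. Of the first 50 in 3T3 Runx2 day 0 and in Runx2 day 3, 10 (20%) and 7 (14%) did, against 4.37% and 3.30%. The Jun list held 2 (4%), close to its share of 4.94% over all peaks, and Foxa2 held 0 of 50, which allows a share of up to 6.00% by the limit of 3 counts for a count of 0 and of up to 7.13% by the Wilson interval. The list named for GFP day 3 met the heads of the other Runx2 lists too. It met 32 of the first 50 (64.0%) in chondrocyte Runx2, against 13.6% of all. In Runx2 day 0 it met 31 (62.0%, against 21.6%) and in Runx2 day 3 34 (68.0%, against 15.9%). For Jun it met 8 (16.0%, against 23.7%) and for Foxa2 3 (6.00%, against 0.665%). Along the whole osteoblast Runx2 file the share overlapping the list named for GFP day 3 went from 61.9% in the first 10% to 2.83% in the last. It also fell along Runx2 day 0 (47.9 to 0.580%) and Runx2 day 3 (45.9 to 0.259%), and along the Jun file it rose, from 12.7 to 27.4%. Whether the authors removed control sites from any list is not given in the sources used here. The day 0 list is not touched by the crossed labels, and 40 of the 50 peaks (80.0%) that head the list named for Runx2 day 0 also lay in osteoblast Runx2.

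The first 3 peaks of the day 0 file were all persistent. The first lay on chromosome 12 from 44073854 to 44074028 (mm9, 175 bp), its day 3 partner from 44073851 to 44073991. The next was found at chr9:21754914-21755024 (111 bp), its partner from 21754927 to 21755027. Both were also in the 2 lists of 3T3 Runx2, in Runx2 of both primary cell types and in Jun. The third, on chromosome 15 from 72399047 to 72399210 (164 bp), was in these and in Foxa2, hence in all 6 other lists, which was true of 5 day 0 peaks in all. No genome or annotation of mm9 was used, so no sequence is shown and no peak is assigned to a gene.

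The earliest lost peaks shared a trait. Those at positions 49, 50 and 51 of the day 0 file were each in the Runx2 lists of both primary cell types and in no other list. The peak at position 50 lay on chromosome X from 71114824 to 71114970 (147 bp), 44.4 kb from the nearest peak named for GFP day 3. The peak at position 51 lay on chromosome 16 from 95315476 to 95315612 (137 bp), 523 kb from one. Only 16 of 2475 day 0 peaks (0.646%, 0.398 to 1.05%) were in both primary Runx2 lists and in no other 3T3 list, and 6 of them stood in the first 10% of the file.

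Apart from Foxa2, each other list held a larger share of persistent than of lost peaks. By name and over the whole list the step was largest for Jun. The Jun list held 30.3% of all day 0 peaks, 37.7% (35.2 to 40.3%) of persistent and 20.9% (18.6 to 23.4%) of lost ones, a difference of 16.8 percentage points (13.2 to 20.2) that had the same direction on 20 of 20 chromosomes. The osteoblast Runx2 list held 19.9% of all, 25.2% of persistent and 13.2% of lost peaks, a difference of 12 points (8.89 to 15.0), positive on 16 chromosomes. The chondrocyte Runx2 list held 18.3% of all, 21.8% of persistent and 13.9% of lost peaks, a difference of 7.93 points (4.91 to 10.9), positive on 15.

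The 3T3 Runx2 lists held many peaks of both classes. Runx2 day 0 held 47% of all day 0 peaks, 49.6% of persistent and 43.7% of lost ones, a difference of 5.98 points (2.03 to 9.91) that was positive on 15 chromosomes. Runx2 day 3 held 56.4% of all, 59.4% of persistent and 52.5% of lost ones, a difference of 6.91 points (2.97 to 10.8), positive on 17. Foxa2 held 1.41% of all, 1.16% of persistent and 1.74% of lost peaks, and the interval of the difference held 0 (-0.576 points, -1.63 to 0.372), although with centres within 250 bp it did not (-1.76 points, -3.03 to -0.658). Compared within each of the 10 parts of the file, so that early peaks were set against early ones, the differences averaged 10.2 points for Jun, 7.31 for osteoblast Runx2, 4.26 for chondrocyte Runx2, 6.50 for Runx2 day 0 and 7.75 for Runx2 day 3. Each part had equal weight, and the differences were positive in 9, 8, 9, 7 and 7 of the 10 parts, in this order.

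Exchanging the crossed lists kept the direction for these 5 lists. The persistent and lost shares were then 38.9 and 22.6% in Jun, 28.5 and 12.3% in osteoblast Runx2, 28.2 and 9.53% in chondrocyte Runx2 and 58.9 and 53.0% in the list named for GFP day 3. In Runx2 day 3 they were 82.7 and 33.0%, a difference of 49.7 points (46.3 to 52.9) in place of 6.91. Persistent peaks were then defined by the list named for Runx2 day 0, and 81.8% of all peaks of that list lay in Runx2 day 3. This step is therefore not ranked against that of Jun (16.2 points). For Foxa2 the persistent and lost shares were 1.63 and 1.22%. Which of the crossed lists is taken as the control thus changed how much of the persistent background lay in the Runx2 day 3 list.

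**Figure D3:**
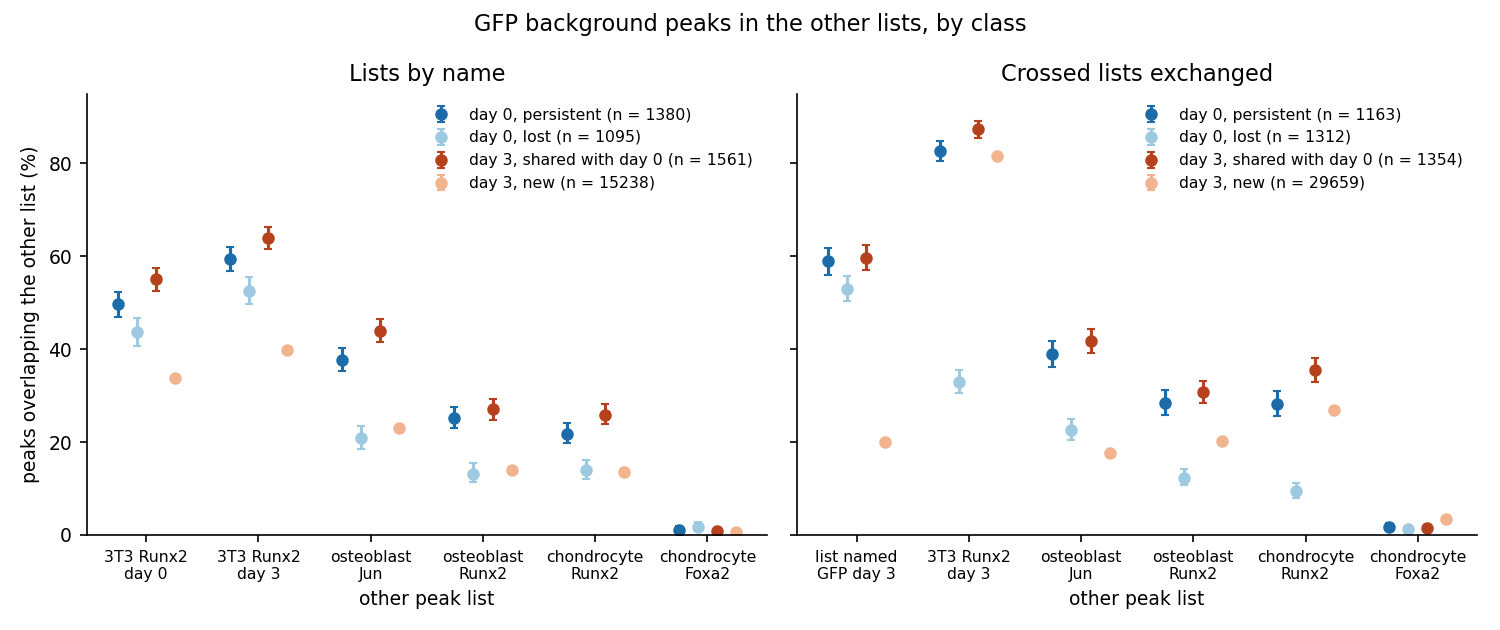
Share of GFP peaks (%) that overlap each of 6 other lists, by class, with lists by name (left) and after the exchange of the crossed lists (right). Points are shares and bars 95% Wilson intervals for counting error. On the left persistent peaks stand above lost ones for Jun (37.7 against 20.9%) and shared above new ones for Runx2 day 3 (63.9 against 39.7%). On the right persistent peaks in Runx2 day 3 stand at 82.7% and lost ones at 33.0%.

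On the day 3 side shared peaks recurred in the other lists more often than new ones in the 5 lists apart from Foxa2. Runx2 day 3 held 41.9% of all day 3 peaks, 63.9% of shared and 39.7% of new ones, a difference of 24.2 points (21.6 to 26.7). Runx2 day 0 held 35.7% of all, 55.0% of shared and 33.7% of new peaks (21.3 points, 18.7 to 23.9). Jun held 25% of all, 43.9% of shared and 23.0% of new peaks (20.9 points, 18.4 to 23.5). The shares by class were 27.0 and 13.9% in osteoblast Runx2, which held 15.1% of all, and 25.9 and 13.6% in chondrocyte Runx2, which held 14.7% of all. Each of these 5 differences was positive on at least 19 of 20 chromosomes and in 10 of 10 parts of the file. Foxa2 held 0.619% of all day 3 peaks, 0.833% of shared and 0.597% of new ones, with an interval of the difference that held 0 (0.236 points, -0.135 to 0.833), although with an overlap of 50% of the shorter peak it did not (0.504 points, 0.0996 to 1.20).

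After the exchange the shared and new shares were 59.7 and 19.9% in the list named for GFP day 3, 87.3 and 81.6% in Runx2 day 3, 41.7 and 17.7% in Jun, 30.7 and 20.2% in osteoblast Runx2 and 35.5 and 26.9% in chondrocyte Runx2. For Foxa2 the order was then the opposite, with 1.40% of shared and 3.49% of new peaks (-2.09 points, -2.63 to -1.28). Averaged over the 10 parts of that file with equal weight, the chondrocyte Runx2 difference was -0.687 points, the Runx2 day 3 difference 0.242 points and the osteoblast Runx2 difference 1.78 points. They were positive in 3, 5 and 7 parts, and over the whole list they were 8.67, 5.74 and 10.5 points. The averages of these 3 lists were hence smaller than their whole-list differences, while Jun kept 16.9 points. They carry no interval, and the last part had few shared peaks (0.613%).

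Taken by how many other lists held them, lost and new peaks were the more private. None of the 6 other lists met 276 of 1380 persistent peaks (20%, 18.0 to 22.2%), 324 of 1095 lost ones (29.6%, 27.0 to 32.4%), 263 of 1561 shared ones (16.8%, 15.1 to 18.8%) and 6632 of 15238 new ones (43.5%, 42.7 to 44.3%). At the other end, the 5 lists apart from Foxa2 all held 78 persistent peaks (5.65%), 28 lost (2.56%), 100 shared (6.41%) and 353 new ones (2.32%). After the exchange no other list met 5.42% of persistent, 24.7% of lost and 11.5% of new peaks. The commonest combination at day 0 was no other list at all, GFP day 3 included (324 peaks, 13.1%), then GFP day 3 alone (276, 11.2%), both 3T3 Runx2 lists alone (182, 7.35%) and GFP day 3 with both of these (176, 7.11%). A primary-cell Runx2 list of either type met 34.1% of persistent, 19.8% of lost, 38.8% of shared and 21.3% of new peaks. Jun without any Runx2 list met 7.17% of persistent, 3.93% of lost, 7.24% of shared and 6.79% of new peaks.

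The widest peaks gave examples of each class. The widest persistent peak, of 514 bp, was on chromosome 16 from 23107737 to 23108250, and it met its day 3 partner, from 23108231 to 23108368, at its edge only. It was also in Runx2 day 3, Jun and both primary Runx2 lists. The next lay on chromosome 5 from 143579485 to 143579980 (496 bp), inside a day 0 cluster, with 2 partners and membership of 5 other lists. The widest lost peak lay on chromosome 5 from 108561002 to 108561499 (498 bp), 66.2 kb from the nearest day 3 peak. The third widest, on chromosome 3 from 88306353 to 88306844 (492 bp), was 0.168 kb from one.

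New peaks reached a width of 498 bp. The 3 taken first by position among those tied at this width, all on chromosome 1, began at 10223022, 43502462 and 89652757 and were 195, 282 and 252 kb from the nearest day 0 peak, where the median of all new peaks was 173 kb. The first was in Runx2 day 3 and Jun, the next in Jun and the last in no other list. The earliest new peaks in the file stood at positions 23, 27 and 28. That at position 23, on chromosome 11 from 106993290 to 106993431, was in both 3T3 Runx2 lists and osteoblast Runx2. That at position 27, on chromosome 19 from 53464823 to 53464994, was 0.346 kb from a day 0 peak and, of the 6 other lists, in chondrocyte Runx2 alone. That at position 28, on chromosome 5 from 106305565 to 106305945, was 2189 kb from a day 0 peak and in 5 other lists.

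Day 0 background was scattered and day 3 background crowded. Peaks of a list with gaps of at most 10 kb were joined, and 3 peaks or more made a cluster. Day 0 had 100 clusters with 378 peaks (15.3%, 13.9 to 16.7%), and 65.1% of its peaks stood alone. Day 3 had 1897 clusters with 7443 peaks (44.3%, 43.6 to 45.1%), and 27.7% stood alone. The other lists had 56.0% (Runx2 day 3), 46.1% (Runx2 day 0), 24.0% (Jun), 14% (Foxa2), 13.1% (chondrocyte Runx2) and 12.7% (osteoblast Runx2) of peaks in clusters, so day 3 ranked beside the 3T3 Runx2 lists and day 0 beside the primary-cell lists. A longer list has shorter gaps. Cut to its first 2475 peaks in file order, the day 3 list had 15.9% (14.5 to 17.4%) in clusters, next to the 15.3% of day 0. After the exchange the clustered share of day 3 was 46.1%.

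Of persistent peaks 15.5% and of lost peaks 15.0% were in day 0 clusters, and 44.3% of shared as of new peaks were in day 3 clusters. After the exchange the day 0 shares were 15.7 and 14.9%, but 56.9% (54.2 to 59.5%) of shared against 45.6% (45.0 to 46.1%) of new peaks were in day 3 clusters. With the day 3 list cut to its first 2475 peaks, 19.6% (16.6 to 23.0%) of persistent and 14% (12.5 to 15.6%) of lost peaks were in day 0 clusters. Of the 100 day 0 clusters, 97 held a day 3 peak within their bounds, in 20 every peak was shared and in 4 no peak was overlapped. The persistent share was 56.6% (51.6 to 61.5%) for clustered and 54.1% (51.7 to 56.5%) for lone day 0 peaks, and nothing particular to clusters is read from the 97. Of 1897 day 3 clusters, 452 (23.8%, 22.0 to 25.8%) held a day 0 peak, 1490 (78.5%) had no shared peak and in 26 every peak was shared. Jun overlap went with crowding at day 3, at 29.0% of clustered peaks (27.9 to 30.0%), 26.6% of pairs and 17% of lone peaks (15.9 to 18.1%). At day 0 the Jun shares were 35.2% (30.5 to 40.1%), 31.7% and 28.7% (26.5 to 30.9%). For clustered, paired and lone day 3 peaks the shares were 43.4, 44.9 and 36.6% in Runx2 day 3 and 36.9, 38.5 and 30.9% in Runx2 day 0. They were 14.5, 16.5 and 13.3% in chondrocyte Runx2, 13.7, 17.3 and 15.2% in osteoblast Runx2 and 0.591, 0.554 and 0.730% in Foxa2. The part of file order in these shares was not tested.

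The cluster with most peaks in the day 0 list was near the low-coordinate end of chromosome 11, from 3030797 to 3071797 (41.0 kb). It held 21 day 0 peaks with widths of 24 to 393 bp (median 209), and 13 of them stood in the first 10% of the file. Only 3 were shared, and the day 3 list had 3 peaks there. Runx2 day 0 had 10, Runx2 day 3 had 12 and Foxa2 had 7, while Jun and both primary Runx2 lists had 0. Peaks of 5 lists, from fibroblasts and from chondrocytes, thus lay in this interval, as the map of clusters shows.

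Chromosome 19 carried a pair of neighbouring day 0 clusters. The larger, from 5834420 to 5849588 (15.2 kb), held 11 day 0 peaks of which 1 was shared, 4 day 3 peaks, 16 of Runx2 day 0, 14 of Runx2 day 3, 12 of Foxa2, 6 of Jun and 2 of each primary Runx2 list. The other, from 5794222 to 5809975 (15.8 kb), held 8 day 0 peaks of which 1 was shared, 2 day 3 peaks, 10 of Runx2 day 0, 15 of Runx2 day 3, 6 of Jun and 3 of Foxa2. A larger part of the day 0 peaks was shared in the clusters on chromosomes 5 and 8. On chromosome 5 from 143575925 to 143584676 (8.75 kb) 4 of 8 day 0 peaks were shared and day 3 had 10 peaks. On chromosome 8 from 86721236 to 86727867 (6.63 kb) 5 of 8 were shared and day 3 had 7.

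The 5 clusters with most day 3 peaks held between 0 and 4 day 0 peaks each. As a background, 23.8% of all 1897 day 3 clusters held a day 0 peak and 9.29% of all day 3 peaks were shared. The counts are hence not read as a trait of these 5 clusters. The first, on chromosome 10 from 79597924 to 79633135 (35.2 kb), had 19 day 3 peaks of which 4 were shared, 4 day 0 peaks, 19 of Runx2 day 0, 22 of Runx2 day 3 and 15 of Jun. The second, on chromosome 10 from 80591481 to 80612855 (21.4 kb), had 14 day 3 peaks and no day 0 peak, with 3, 7 and 5 of the same lists. On chromosome 2 from 71366953 to 71385114 (18.2 kb) there were 13 day 3 peaks and 1 day 0 peak. A cluster on chromosome 11 from 98798626 to 98830865 had 13 day 3 peaks, 1 day 0 peak and 7 osteoblast Runx2 peaks. The last of these 5 clusters, between 34046097 and 34077924 of chromosome 17, had 13 day 3 peaks and 2 day 0 peaks.

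**Figure D4:**
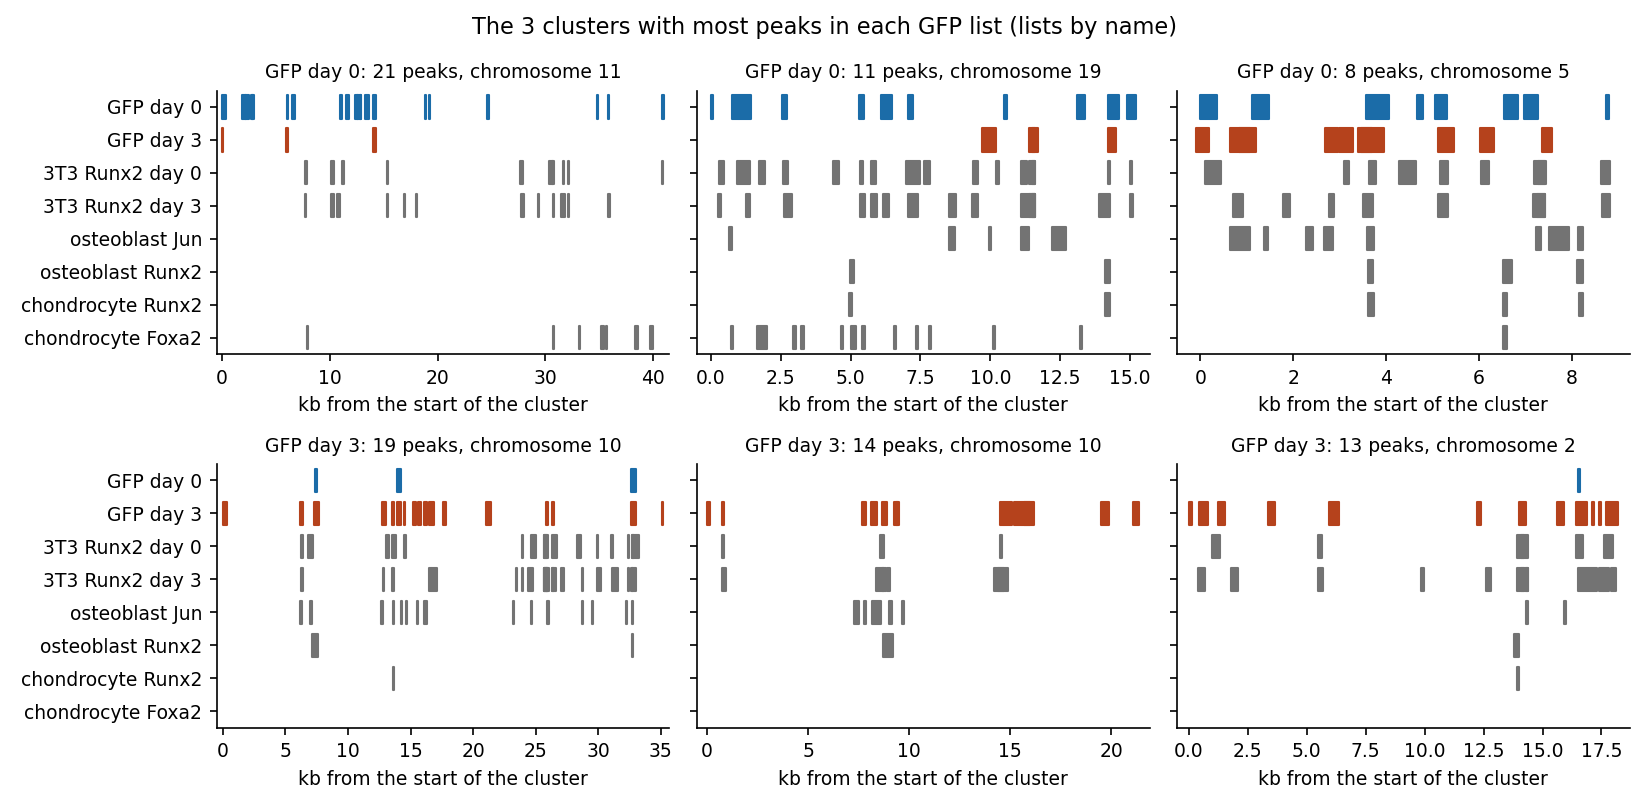
Peaks of all 8 lists within the 3 clusters with most peaks of GFP day 0 (top) and of the list named for GFP day 3 (bottom), with lists by name. The horizontal axis is the distance in kb from the start of the cluster, each bar is a peak drawn to scale with a minimum line width, and overlapping peaks merge. On chromosome 11 the 21 day 0 peaks stand mostly clear of the 3 day 3 peaks, and in the middle lower panel no day 0 peak is present.

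Chromosome 11 carried more of the day 0 list than of any other list. It carried 321 day 0 peaks (13%, 11.7 to 14.4%), against 8.52% of the peaks of the 6 other lists together, whose single lists ranged from 6.29 to 9.53%. This was 1.52 times the level of the other lists, while GFP day 3 by name had 9.34%, inside their range, and 9.53% after the exchange. With the day 0 cluster of 21 peaks left out of both lists, it still carried 12.2%. The next highest ratio was on chromosome 19, with 4.65% of day 0 peaks and a ratio of 1.36, and the lowest were on chromosomes 13 (0.663) and 14 (0.693). At day 3 the ratios lay between 0.833 (chromosome 1) and 1.12 (chromosome 7). Day 0 was outside the range of the 6 other lists on 14 of 20 chromosomes, 9 below and 5 above, and day 3 on 7, of which 2 below and 5 above. Some of these steps are within counting error: the day 0 share of chromosome 8, at 4.40% (3.66 to 5.29%), has an interval that reaches into the range.

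The share of persistent peaks ran from 44.3% (35.6 to 53.5%) on chromosome 19 to 66.1% (53.0 to 77.1%) on chromosome 18, with a median of 56.6%, and the intervals of 18 of 20 chromosomes held the 55.8% of the whole list. On chromosome 11 it was 51.7% (46.3 to 57.1%). From the day 3 side the shared part ran from 6.35% on chromosome 14 to 11.4% on chromosome 11, with a median of 8.96%.

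**Figure D5:**
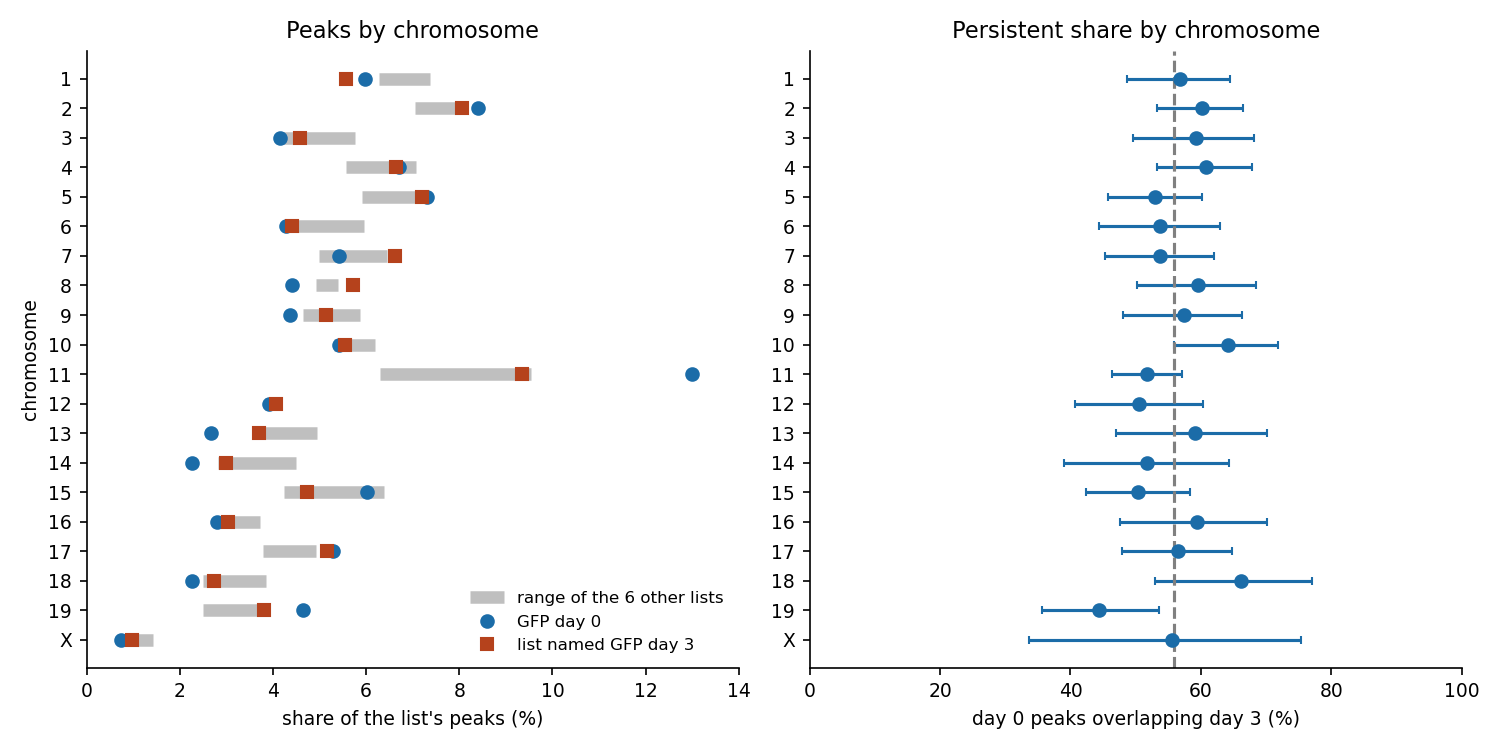
Left, share of each GFP list's peaks (%) by chromosome, with grey bars for the range of the 6 other lists. The day 0 point on chromosome 11 stands at 13%, right of a range that ends at 9.53%. Right, share of day 0 peaks (%) that are persistent by chromosome with 95% Wilson intervals for counting error, and a dashed line at the 55.8% of the whole list.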

How the data were processed

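Each of the 8 ChIP groups had 1 peak list, deposited by the authors as 3 columns of peak coordinates (unit other) with no score. Coordinates were of mm9, with Bowtie and DiffBind named without a role, per the submitters' processing notes. How peaks were called (program, threshold, control, pooling), what ordered the files and how deep the libraries were are not given in the sources used here. ATAC-seq, input and IgG libraries are not analysed here.

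The members and the lists compared with them were chosen with earlier results of these data known. Overlap meant at least 1 bp. Coordinates are 1-based. Overlap counts were checked with bedtools 2.31.1 (0 of 14 list pairs differing), and overlap and interval code was tested on simulated data. Shares carry Wilson and differences Newcombe 95% intervals. With 1 list per group no test was made. Regions named are, for each class, among the 3 widest and the first 3 in file order, and the 5 clusters with most peaks per GFP list. The first 48, 50 and 100 peaks of files were chosen after seeing the data. Alternatives were stricter or looser overlap, part of each list, other gaps and the exchange of crossed lists. Merging overlapping peaks, leaving out the top day 0 cluster, and the exchange for clusters and chromosomes were added after seeing the data. Python 3.11.15, NumPy 2.4.6, pandas 2.3.3, statsmodels 0.14.6 and matplotlib 3.10.9 were used.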

Additional observations from a re-analysis of the deposited data

How the results depend on the processing

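The persistent share of 55.8% became 47.4% when at least 50% of the shorter peak had to overlap, 57.8% with centres within 250 bp, 35.7% in the wider 50% of each list, 66.1% in the first 50% of each file, 47.0% with the crossed lists exchanged and 23.3% with the day 3 list cut to its first 2475 peaks. The shared part of day 3, 9.29%, became 7.41% with the stricter overlap, 5.99% in the wider 50%, 11.2% in the first 50%, 4.37% with the exchange and 24.6% with the day 3 list cut. The clustered share of day 0, 15.3%, became 13.3% with gaps of 5 kb, 22.5% with 50 kb and 12.8% after merging. That of day 3, 44.3%, became 39.2%, 69.2% and 30.9%, 15.9% in the cut list and 46.1% with the exchange. Counting each cluster once moved the day 3 share on chromosome 11 from 9.34 to 8.79%. Of the 12 class differences, 10 had intervals that left out 0, and 0 of their 50 values under the alternatives, taken singly, changed direction. The exchange together with the parts of the file, not among these, turned that of chondrocyte Runx2 in shared against new peaks to -0.687 points. The 2 Foxa2 differences are outside this count: persistent minus lost (-0.576 points) was -1.76 with centres within 250 bp and 0.414 with the exchange, and shared minus new (0.236) was 0.504 with the stricter overlap and -2.09 with the exchange. No paired analysis was possible because each group has 1 library. With unknown depth and 1 library per group, a lost or new peak may be a site near the threshold of detection, and the spread between cultures was not measured.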
